A study of Mus musculus with 8 samples.

Results

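The 10 genes described here encode the pyruvate dehydrogenase complex of mitochondria and the enzymes that switch it off and on. They are the 4 kinases Pdk1 to Pdk4, the 2 phosphatases Pdp1 and Pdp2, and 4 subunits of the complex, Pdha1, Pdhb, Dlat and Pdhx. They were taken by name. Each has exactly 1 probe set annotated to that gene alone, so all 10 were measured, among 19936 genes in all.

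Whole-kidney RNA of 8 female mice of a mixed C57BL/6 and SV127 background was read on 8 Affymetrix arrays, 1 mouse an array. The 4 arrays labelled mutant came from mice of the genotype Pax8-rtTA;LC-1;Vhl-floxed, and the 4 labelled control from littermates whose own alleles the labels do not name. In this system Pax8-rtTA is active in kidney tubule epithelium and, with doxycycline present, switches on the Cre recombinase of the LC-1 transgene, which cuts the floxed Vhl alleles. Doxycycline at 0.2 mg/ml in 5% sucrose was given to both groups when they were 3 weeks old, for 2 weeks. After 1 further week on plain water the kidneys were taken at 6 weeks of age. Since the RNA is from the whole organ, it includes cells in which Pax8-rtTA is not active, and fewer cells of a type and less RNA per cell cannot be told apart.

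The complex turns pyruvate, the end product of glycolysis, into acetyl-CoA for the citric acid cycle. The kinases phosphorylate the alpha subunit of its first enzyme and stop it, and the phosphatases undo this. Pdk1 is a textbook target of hypoxia-inducible factor (HIF), the transcription factor whose alpha subunits the Vhl protein marks for destruction, and Pdk4 is known for its induction by fasting, fatty acids and glucocorticoids. Kidney tubules, above all the proximal tubule, burn mainly fatty acids and other non-glucose fuels.

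The targeted gene ran against the labels. Vhl read 8.34 ± 0.0909 in the arrays labelled mutant and 8.05 ± 0.118 in the arrays labelled control (log2 values, SD, n = 4 each), a log2 difference of 0.29 (limma adjusted p = 0.0387). That call was lost in 9 of 17 alternative analyses. They include the replicate block (limma adjusted p = 0.0558), the fits without 1 of mutant arrays 2, 3 and 4 (0.0858, 0.0867 and 0.0785) and those without 1 of control arrays 1, 2 and 3 (0.0994, 0.109 and 0.114). Egln3, a prolyl hydroxylase gene that HIF induces, picked after its values were seen, was lower in the arrays labelled mutant by a log2 difference of -2.96 (limma adjusted p = 2.15e-06). The stretch of Vhl that the probe set reads is not known here. Every direction below therefore follows the labels alone and is no direction of Vhl loss. Array medians lay between 7.55 and 7.58, and the kidney label was met by high values of tubule markers, such as Slc34a1 (13.8 and 13.6 in the arrays labelled mutant and control) and Umod (13.7 and 13.6).

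The 250 bases before the annotated start of the 4 kinase genes are shown because 2 of these genes differed between the groups and 2 were not called, and because HIF binds DNA around the core ACGTG or GCGTG. They are RefSeq sequences of the build GRCm38.p6, written 5′ to 3′ along the gene, with each ACGTG or GCGTG, on either strand, in capitals (CACGT or CACGC where the match is on the opposite strand). The windows are chr2:71872974-71873223 (plus strand) for Pdk1, chr11:95041372-95041621 (minus strand) for Pdk2, chrX:93832151-93832400 (minus strand) for Pdk3 and chr6:5496279-5496528 (minus strand) for Pdk4. Pdk1 and Pdk2 each have a further annotated start downstream, whose window held neither motif.
Pdk1: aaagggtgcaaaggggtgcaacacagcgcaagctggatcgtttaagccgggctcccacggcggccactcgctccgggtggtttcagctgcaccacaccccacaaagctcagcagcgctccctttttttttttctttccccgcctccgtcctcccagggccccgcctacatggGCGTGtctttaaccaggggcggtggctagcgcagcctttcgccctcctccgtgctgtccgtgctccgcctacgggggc
Pdk2: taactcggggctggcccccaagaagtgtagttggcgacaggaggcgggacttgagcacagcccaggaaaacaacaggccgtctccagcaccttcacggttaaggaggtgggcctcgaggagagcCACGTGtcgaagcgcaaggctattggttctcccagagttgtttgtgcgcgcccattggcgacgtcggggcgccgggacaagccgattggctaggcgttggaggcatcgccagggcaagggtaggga
Pdk3: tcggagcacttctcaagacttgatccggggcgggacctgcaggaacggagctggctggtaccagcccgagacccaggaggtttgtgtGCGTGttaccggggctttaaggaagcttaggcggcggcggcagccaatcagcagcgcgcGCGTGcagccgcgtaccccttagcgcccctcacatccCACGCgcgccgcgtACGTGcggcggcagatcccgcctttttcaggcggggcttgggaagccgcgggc
Pdk4: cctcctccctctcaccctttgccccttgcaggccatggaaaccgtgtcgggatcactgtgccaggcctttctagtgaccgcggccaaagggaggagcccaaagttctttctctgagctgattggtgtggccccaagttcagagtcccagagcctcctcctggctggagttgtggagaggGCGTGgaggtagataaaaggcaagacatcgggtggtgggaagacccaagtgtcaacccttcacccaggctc

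Pdk1 held 1 GCGTG, 78 to 74 bases before its start, and Pdk4 held 1 GCGTG, 71 to 67 bases before its start. A further GCGTG of Pdk1 reaches past the end of the window shown, and counted over the table's 300 bases there were 2. Pdk2 held an ACGTG on each strand, overlapping as the palindrome CACGTG 126 to 121 bases before the start, and Pdk3 held 1 ACGTG and 3 GCGTG. These letters therefore did not separate the kinase genes that differed from those that were not called. Over all members, 9 of 10 had a window in the table (all but Pdp1), with 11 windows between them. Counted by gene, in any of its windows, 8 of these 9 held ACGTG or GCGTG. Among them were Pdp2, Pdha1, Pdhb and Pdhx, while Dlat held neither. Counted by window and not by gene, 38.6% of all 32851 windows of this length in the table held ACGTG or GCGTG (16.6% ACGTG and 28.2% GCGTG, with some holding both). A match is a stretch of letters and not a shown binding site.

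Of the 4 kinase genes, Pdk1 and Pdk4 were both about 3-fold lower in the arrays labelled mutant, while Pdk2 and Pdk3 were not called. Across all 19936 genes 7.23% passed the limma test at an adjusted p under 0.05, 4.64% lower and 2.59% higher in the arrays labelled mutant. Of the 10 members 2 fell, 0 rose and 8 did not pass; without adjustment 4 of 10 had a p under 0.05, as did 21.8% of all genes. The median log2 difference of the members was 0.05, beside 0.03 for all genes, since the 8 other members lay near 0. The comparison asked how these genes differ between kidneys of the 2 labelled groups.

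**Figure D1:**
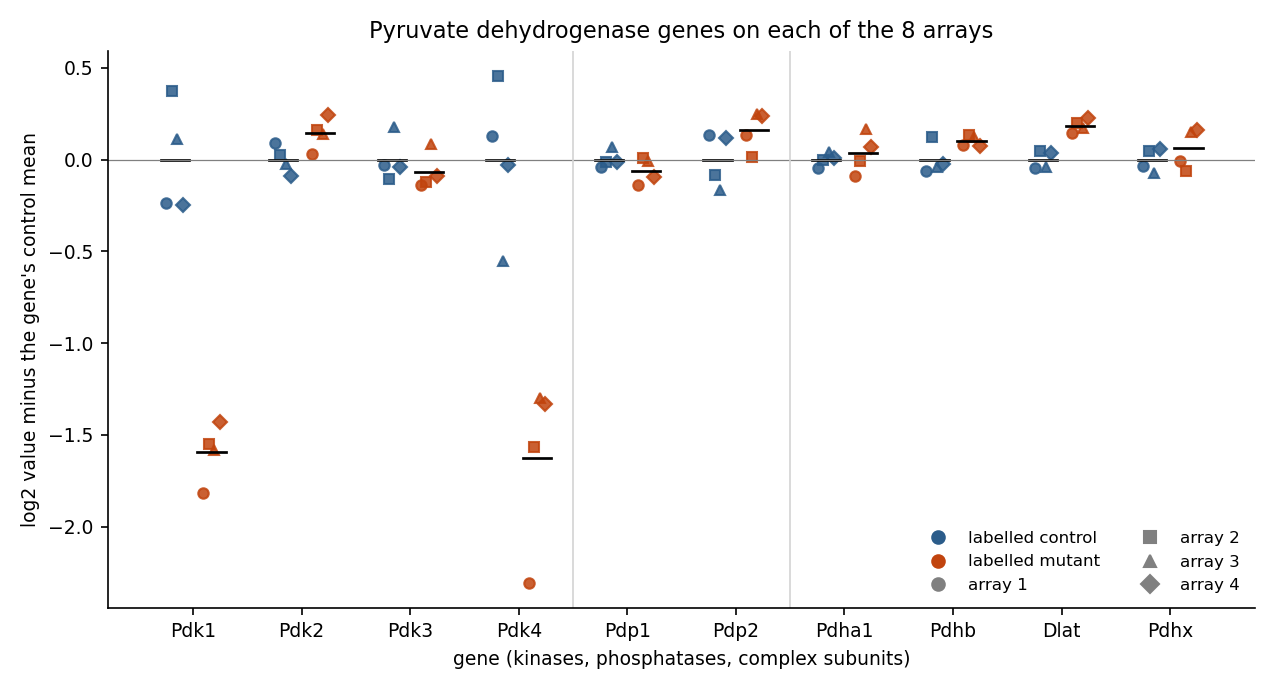
Each point is 1 array, plotted as the gene's log2 value minus its mean in the 4 arrays labelled control; colours are the labelled groups, symbols the array numbers and black bars the group means. For Pdk1 and Pdk4 all 4 arrays labelled mutant lie below all 4 labelled control, with log2 differences of -1.60 and -1.62, while the largest difference among the other 8 genes is 0.184.

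Pdk1 encodes the kinase isoform that also phosphorylates a site on the alpha subunit which the other isoforms leave alone. Its log2 values were 9.05, 9.32, 9.28 and 9.44 on mutant arrays 1 to 4 and 10.6, 11.2, 11.0 and 10.6 on control arrays 1 to 4. The groups did not overlap: 1.18 separated the highest array labelled mutant from the lowest labelled control. The means were 9.27 ± 0.163 and 10.9 ± 0.300 (SD, n = 4 each). This is a log2 difference of -1.60 ± 0.140 (SE), or 3.02-fold lower in the arrays labelled mutant (95% interval 2.43-fold to 3.75-fold, limma adjusted p = 2.12e-04). It ranked 24 from the lowest difference among all genes.

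Pdk4 encodes the isoform that rises in fasting and spares glucose. Its log2 values were 9.82, 10.6, 10.8 and 10.8 on mutant arrays 1 to 4 and 12.2, 12.6, 11.6 and 12.1 on control arrays 1 to 4. The groups again did not overlap, but the gap was smaller, 0.746, and each group spanned 1.01 from its lowest to its highest array. Mutant array 1 was the lowest of its group and control array 3 the lowest of its own. The means were 10.5 ± 0.469 and 12.1 ± 0.420 (SD, n = 4 each), a log2 difference of -1.62 ± 0.249 (SE), or 3.08-fold lower in the arrays labelled mutant (95% interval 2.10-fold to 4.53-fold, limma adjusted p = 0.00411). It ranked 23 from the lowest difference, with a wider spread between mice than Pdk1.

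Taken by array number, Pdk4 differed by -2.43, -2.02, -0.746 and -1.30 between the arrays numbered 1 to 4. Pdk1 differed by -1.58, -1.92, -1.69 and -1.18. Both were thus lower in 4 of 4 numbered pairs. With the number as a block both calls held (limma adjusted p = 0.00133 for Pdk1 and 0.0147 for Pdk4).

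Pdk2 encodes an isoform found in most tissues. It read 12.3, 12.4, 12.4 and 12.5 on mutant arrays 1 to 4 and 12.3, 12.3, 12.2 and 12.1 on control arrays 1 to 4. The groups overlapped, mutant array 1 lying below control array 1, and the log2 difference of 0.14 (95% interval 0.0034 to 0.28) did not pass over all genes (limma adjusted p = 0.219). Pdk3, an isoform strongly activated by the core of the complex, read 10.8, 10.8, 11.0 and 10.8 on mutant arrays 1 to 4 and 10.9, 10.8, 11.1 and 10.8 on control arrays 1 to 4. Its groups overlapped, with array 3 the highest in both, and the log2 difference was -0.07 (95% interval -0.24 to 0.10, limma adjusted p = 0.655). Pdk3 was lower in 4 of 4 numbered pairs, by -0.104, -0.017, -0.0913 and -0.0486, and was not called with the replicate block either (limma adjusted p = 0.419). The intervals allow a rise of Pdk2 of up to 0.28 and a fall of Pdk3 of up to 0.24 on the log2 scale.

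Whether the isoforms differed from each other in this respect was tested on the within-array log2 difference of 2 genes, by an exact two-sided permutation of the 4 against 4 arrays, for 7 pairs. The Pdk1 minus Pdk2 value shifted by -1.74 (95% interval -2.12 to -1.36) and the Pdk1 minus Pdk3 value by -1.53 (-1.98 to -1.08). The Pdk2 minus Pdk4 value shifted by 1.77 (1.08 to 2.45) and the Pdk3 minus Pdk4 value by 1.56 (0.73 to 2.39), so Pdk4 too was lowered relative to these isoforms. In these 4 pairs the arrays of the groups did not overlap, and each had the smallest exact p that 4 against 4 arrays allow, 0.0286; adjusted over the 7 pairs it was 0.05, at the threshold and not under it. Between Pdk1 and Pdk4 the shift was 0.03 (95% interval -0.66 to 0.72, exact p = 0.857), so a difference of up to 0.72 on the log2 scale between their falls is within this interval. Pdk2 and Pdk3 shifted apart by 0.21 (-0.04 to 0.45, exact p = 0.114, 0.16 adjusted).

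**Figure D2:**
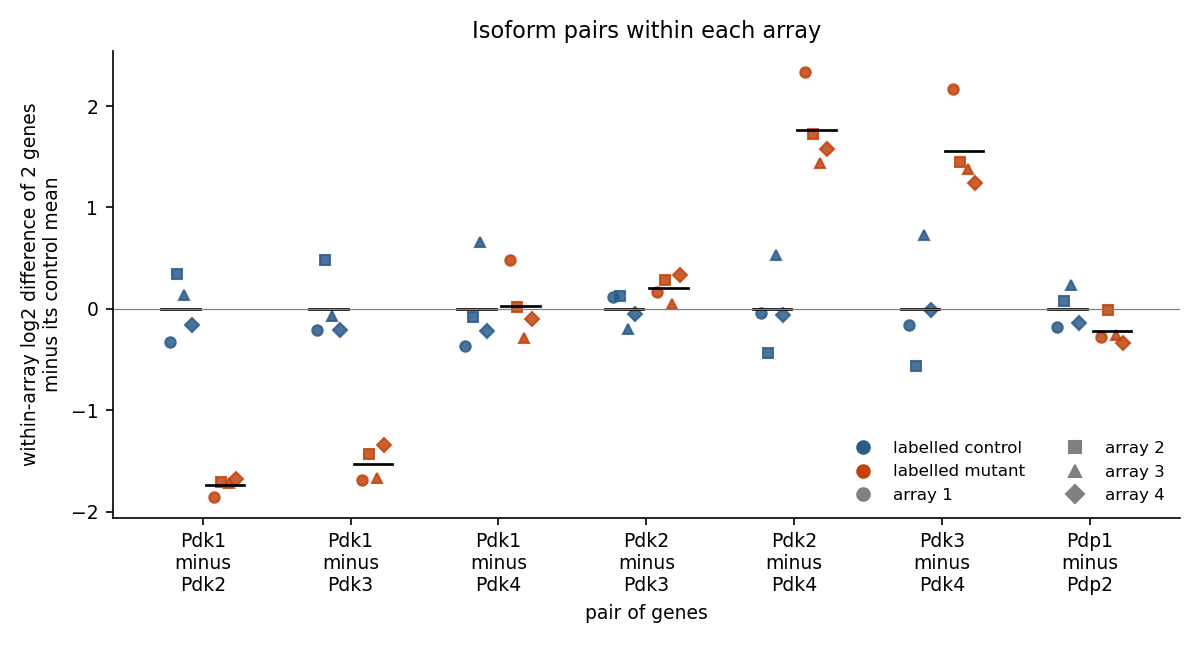
Each point is 1 array, plotted as the log2 value of the first gene minus that of the second, less the mean of that quantity over the 4 arrays labelled control; black bars are group means. Pairs that set Pdk1 or Pdk4 against Pdk2 or Pdk3 shift by -1.74, -1.53, 1.77 and 1.56 with no overlap between groups, while Pdk1 minus Pdk4 shifts by 0.03.

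The phosphatases, which return the complex to its active form, were not called. Pdp1, the calcium-stimulated enzyme, spanned 9.45 to 9.60 in the arrays labelled mutant and 9.55 to 9.66 in the arrays labelled control, with a log2 difference of -0.06 (95% interval -0.18 to 0.06, limma adjusted p = 0.560). Pdp2, known to respond to insulin, read 8.84, 8.72, 8.95 and 8.94 on mutant arrays 1 to 4 and 8.84, 8.62, 8.54 and 8.82 on control arrays 1 to 4. Its groups overlapped, control arrays 2 and 3 being the lowest, and its log2 difference was 0.16 (95% interval -0.03 to 0.35, limma adjusted p = 0.312). The 2 phosphatases were not shown to differ from each other (Pdp1 minus Pdp2 shift -0.22, 95% interval -0.51 to 0.07, exact p = 0.143, 0.167 adjusted). Neither interval reaches the difference of Pdk1 or Pdk4.

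The subunits of the complex all had small positive differences, none of which passed the test. A positive difference was also found for 11587 of all 19936 genes. Dlat, the acetyltransferase that forms the core of the complex and carries lipoic acid, came closest. It read 10.8, 10.9, 10.9 and 10.9 on mutant arrays 1 to 4 and 10.7, 10.8, 10.7 and 10.7 on control arrays 1 to 4. All 4 arrays labelled mutant lay above all 4 labelled control, by a gap of 0.0967. The log2 difference was 0.18 ± 0.0494 (SE), a ratio of 1.14 (95% interval 1.05-fold to 1.23-fold), with a limma adjusted p of 0.0530. Dlat was 1 of 3 members whose groups did not overlap, with Pdk1 and Pdk4, where 14.8% of all genes had groups that did not overlap. Dlat passed in 4 of 17 alternative analyses: after quantile normalization (limma adjusted p = 0.0240), with the upper 60% of genes (0.0235), with a trended and robust variance (0.0255) and with array weights (0.0386).

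Pdha1 is the X-linked alpha subunit of the first enzyme, on which the kinases act, and Pdhb its partner beta subunit. Pdha1 spanned 11.2 to 11.5 in the arrays labelled mutant and 11.3 to 11.4 in the arrays labelled control, a log2 difference of 0.04 (95% interval -0.10 to 0.17, limma adjusted p = 0.774). Its difference turned to -0.05 without mutant arrays 3 and 4 and to -0.01 without mutant array 3. Pdhb spanned 8.79 to 8.85 and 8.65 to 8.84, a log2 difference of 0.10 (95% interval -0.02 to 0.23, limma adjusted p = 0.324), and was higher on the array labelled mutant in 4 of 4 numbered pairs. Pdhx, which anchors the third enzyme of the complex to the core, spanned 8.61 to 8.83 and 8.60 to 8.73, a log2 difference of 0.06 (95% interval -0.09 to 0.21, limma adjusted p = 0.625). It turned to -0.03 without mutant arrays 3 and 4. Over the 8 members other than Pdk1 and Pdk4, the SD within a group ran from 0.0308 to 0.150, and no 95% interval reached beyond 0.346, or 1.27-fold.

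Genes around the complex were read from a list of 43, of which 39 had a probe set of their own. Of these, 3 rose, 4 fell and 32 did not pass, with a median log2 difference of 0.08. Among all 19936 genes 2.59% rose and 4.64% fell, with a median of 0.03. The third enzyme itself, Dld, which pyruvate dehydrogenase shares with its sister complexes, had a log2 difference of 0.08 (limma adjusted p = 0.588). Pdpr, the regulatory subunit of the Pdp1 phosphatase, had 0.10 (0.288), and Mpc1, a subunit of the carrier that brings pyruvate into mitochondria, had 0.11 (0.278). Mpc1 passed in 1 of 17 alternative analyses, after quantile normalization (log2 difference 0.18, limma adjusted p = 0.0492). Dld, Pdpr and Mpc1 were picked for their roles after values were seen.

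Enzymes that use or form pyruvate in other ways held 3 of the 4 falls. Ldha, the lactate dehydrogenase subunit that favours lactate formation, read 12.4 ± 0.0948 in the arrays labelled mutant and 13.4 ± 0.0780 in those labelled control (SD, n = 4 each), which is 1.94-fold lower (limma adjusted p = 3.48e-05). Gpt2, the mitochondrial alanine aminotransferase, read 9.68 ± 0.235 and 10.4 ± 0.0337 (SD, n = 4 each) and was 1.70-fold lower (limma adjusted p = 0.00222). Pcx, pyruvate carboxylase, which makes oxaloacetate from pyruvate, read 11.7 ± 0.0938 and 12.1 ± 0.0963 (SD, n = 4 each) and was 1.37-fold lower (limma adjusted p = 0.00362). Me3, a mitochondrial malic enzyme that forms pyruvate, read 9.72 ± 0.113 and 9.36 ± 0.172 (SD, n = 4 each) and was 1.28-fold higher (limma adjusted p = 0.0422). Of the 8 genes measured in this class 3 fell, 1 rose and 4 did not pass. Me3 lost its call with the replicate block (limma adjusted p = 0.0680), without 1 of mutant arrays 1, 2 and 3 (0.0804, 0.120 and 0.0910) and without control array 1 (0.106) or 2 (0.120).

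The sister complexes oxidize 2-oxoglutarate and branched-chain keto acids with the same design. Their genes all had positive differences: 1 of 7 genes rose and 6 did not pass, with a median of 0.10. Among all 19936 genes, 11587 had a positive difference, and the median was 0.03. Bckdhb, the beta subunit of the branched-chain enzyme, read 11.2 ± 0.0574 and 10.9 ± 0.122 (SD, n = 4 each) and was 1.22-fold higher (limma adjusted p = 0.0319). Its call was lost without mutant array 2, 3 or 4 (0.0893, 0.0687 and 0.0787) and without control array 1, 2 or 3 (0.0691, 0.0634 and 0.0560). None of the 6 genes of lipoate synthesis and attachment passed; 1 of them had an unadjusted p under 0.05. Their median was 0.05. The 3 deacylases, the 2 measured genes of cofactor supply and citrate synthase, Cs, did not pass either.

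Among 9 transcription factors known to act on Pdk genes, 1 rose and 1 fell. Hif1a, an alpha subunit of HIF, read 11.3 ± 0.0976 and 10.7 ± 0.213 (SD, n = 4 each), a rise of 1.51-fold, and Epas1, the other main HIF alpha subunit, read 11.6 ± 0.0304 and 12.0 ± 0.113 (SD, n = 4 each), a fall of 1.29-fold. Both had a limma adjusted p of 0.00660. Ppara, the fatty acid receptor known to induce Pdk4, had a log2 difference of 0.02 (limma adjusted p = 0.942), and Nr3c1, the glucocorticoid receptor, one of -0.01 (0.949); both were picked for their known action on Pdk4 after values were seen. Transcript levels of a factor do not measure its activity.

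**Figure D3:**
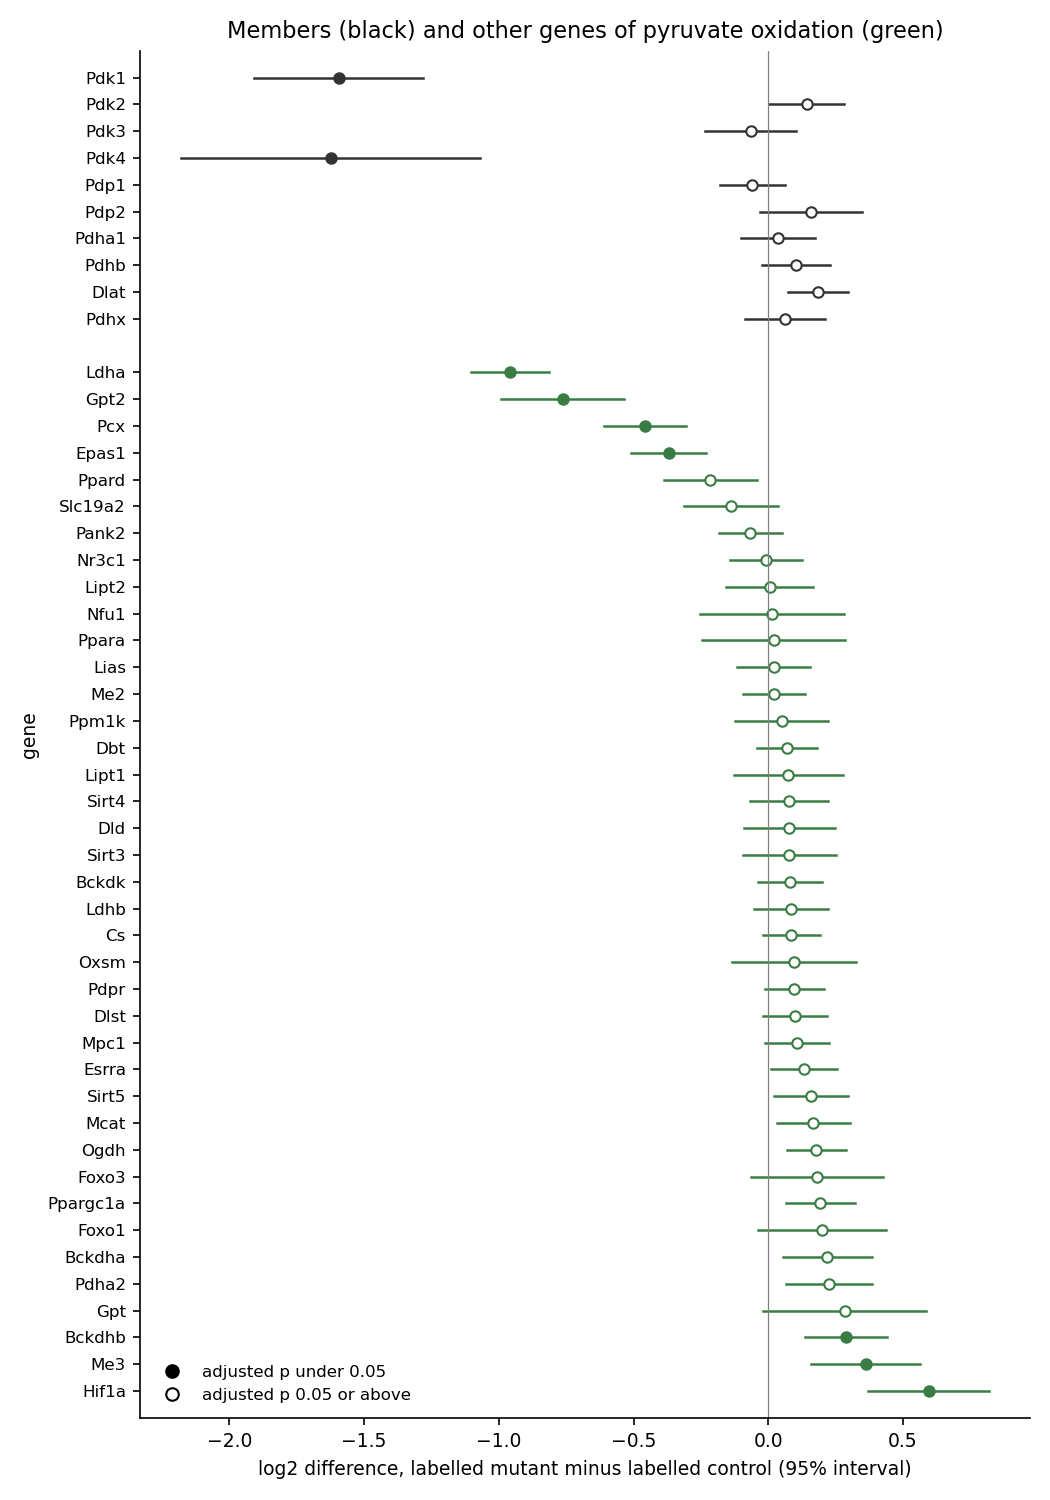
Points are log2 differences, arrays labelled mutant minus arrays labelled control, with 95% intervals from the limma fit; filled points passed an adjusted p under 0.05. Members are black and the 39 measured genes of the list around the complex green, ordered by difference. The figure title calls the green genes those of pyruvate oxidation, but they include sister complexes and transcription factors. Pdk1 and Pdk4 lie at -1.60 and -1.62, below the lowest of the green genes, Ldha, at -0.96.

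The genes most like each lowered kinase were found by the root mean square distance between log2 profiles over the 8 arrays, each profile centred on its own mean. Clone and predicted-gene names were passed over. Closest to Pdk1 was Adm2, a gene of the adrenomedullin family, at a distance of 0.128, followed by Prelid2 (0.135), Pfkp, the platelet-type phosphofructokinase (0.147), Rgs11, a regulator of G protein signalling (0.151), and Adm, adrenomedullin (0.192). Their log2 differences ran from -1.78 for both Prelid2 and Adm to -1.38 for Rgs11, and none had overlapping groups. The choice by closeness to Pdk1, whose own groups do not overlap, favours such values, so they are no separate result. Adm2 read 7.64 to 7.95 on the arrays labelled mutant and 9.16 to 9.43 on the arrays labelled control.

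Pdk4 had no neighbour as close. The nearest was Adm at 0.330, then Hif3a, a further HIF alpha family member, at 0.333, Pdk1 itself at 0.345, Adm2 at 0.366 and Prelid2 at 0.396. Hif3a read 6.96, 7.92, 7.37 and 8.10 on mutant arrays 1 to 4 and 8.95, 9.23, 9.01 and 9.33 on control arrays 1 to 4, a log2 difference of -1.54 (limma adjusted p = 0.00304). Like Pdk4 it was lowest on mutant array 1. A distance of this kind takes in both the size of the group difference and the spread of arrays within a group. The falls of genes chosen by their closeness to Pdk4 are therefore no separate result either.

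**Figure D4:**
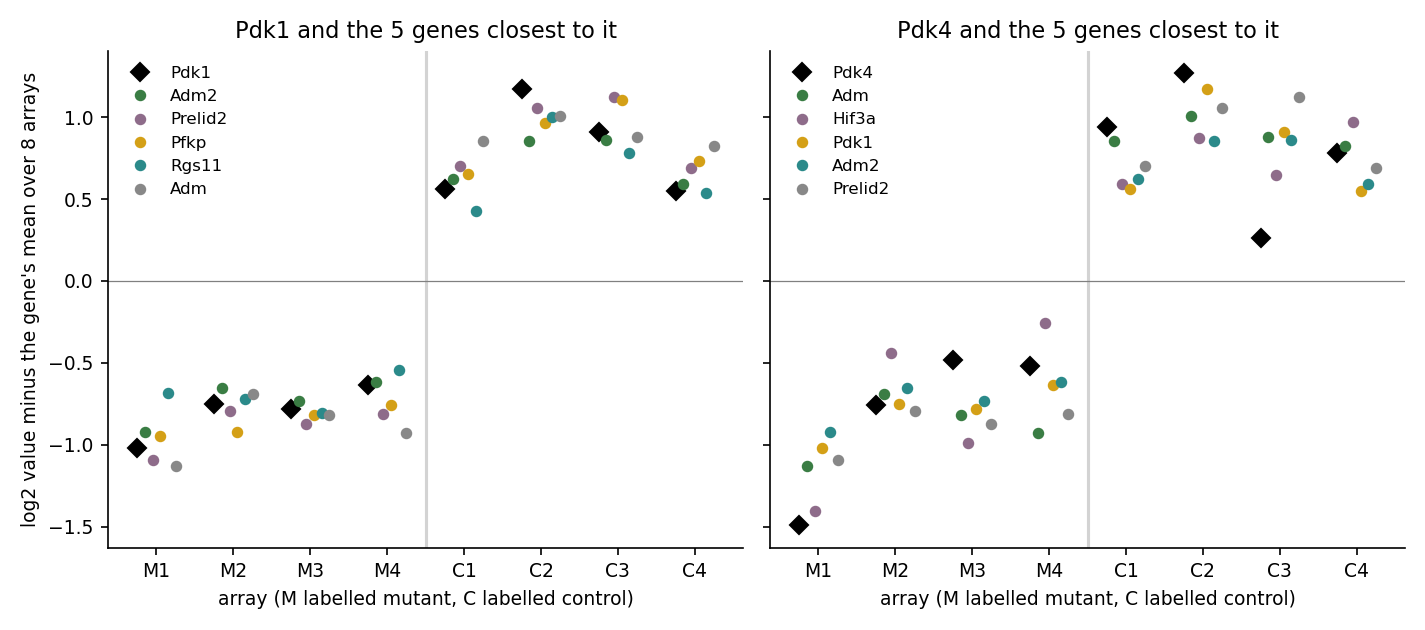
Each point is a gene's log2 value on 1 array minus its mean over the 8 arrays (M1 to M4 labelled mutant, C1 to C4 labelled control); black diamonds are Pdk1 (left) and Pdk4 (right), coloured points the 5 genes closest to each. The neighbours of Pdk1 lie 0.128 to 0.192 from it, those of Pdk4 0.330 to 0.396, and Pdk4 itself is lowest on M1 and, among the arrays labelled control, on C3.

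Some markers of other kidney cells also differed between the groups, where 4.64% of all genes were called lower and 2.59% higher. All 6 endothelial markers (Kdr, Cdh5, Pecam1, Tek, Emcn and Eng) fell, by log2 differences of -0.90 to -0.49. Their summed level, on the log2 scale, was 13.2 to 13.35 in the arrays labelled mutant and 13.8 to 14.01 in those labelled control. Of 6 perivascular markers 4 fell (Acta2, Tagln, Cnn1 and Pdgfrb; summed 11.77 to 12.14 against 12.4 to 12.61), and of 6 fibroblast markers 2 fell (Dcn and Lum; 12.16 to 12.23 against 12.37 to 12.75). Dcn read highest of the fibroblast list and weighs most in its sum. The collagen genes Col1a1, Col1a2 and Col3a1 (-0.04, -0.12 and -0.15) and Pdgfra (0.09) were not called, and the list median was -0.13. Among these endothelial, perivascular and fibroblast markers the lowest differences were -1.04 for Lum and -0.90 for Kdr, beside -1.60 for Pdk1 and -1.62 for Pdk4.

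The tubule markers that passed were higher, though most did not pass. Of 7 proximal tubule markers 1 rose (Slc13a3; summed 15.6 to 15.74 against 15.4 to 15.59), of 4 of the thick ascending limb 2 (Cldn16 and Kcnj1; 14.6 to 14.69 against 14.39 to 14.5), of 4 of the distal tubule 2 (Calb1 and Trpm6; 13.86 to 14.23 against 13.56 to 13.81) and of 5 of the collecting duct 1 (Slc4a9; 12.68 to 12.9 against 12.55 to 12.8); 3 of these 5 collecting duct markers had negative differences, with a list median of -0.04. With the replicate block Slc12a1 of the thick ascending limb and Slc12a3 of the distal tubule also passed, both higher (limma adjusted p = 0.0456 and 0.0341). None of the 6 leukocyte markers passed (1 with an unadjusted p under 0.05, Cd68, which passed as lower with the replicate block at an adjusted p of 0.0334; summed 10.68 to 11.08 against 10.71 to 10.95), nor did any of 4 adipocyte markers (1 with an unadjusted p under 0.05; 9.12 to 9.62 against 9.28 to 9.82). Of 4 podocyte markers Podxl, also made by endothelium, fell (summed 11.93 to 12.03 against 12.11 to 12.24). Podxl read highest of the 4 and weighs most in that sum. In this list 2 differences were positive (Nphs1 0.17 and Wt1 0.10, neither called) and 2 negative, with a median of -0.03. Of the red cell list 2 of 5 genes had a probe set of their own, and Alas2 fell by 2.24 on the log2 scale while Slc4a1 did not pass (10.25 to 10.68 against 10.97 to 11.85). The part of these cell types in the Pdk1 and Pdk4 results was not tested.

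Leaving out single arrays changed the sizes but not the calls of the lowered kinases. Pdk1 stayed between -1.68 and -1.47 without any 1 of the 8 arrays (limma adjusted p from 3.60e-04 to 0.00144), and Pdk4 between -1.81 and -1.40 (0.00450 to 0.0148). Pdk4 was the more dependent on which arrays labelled mutant were kept. It was -1.31 without mutant arrays 1 and 2, which differ from the other arrays in their quartiles, and -1.94 without mutant arrays 3 and 4.

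**Figure D5:**
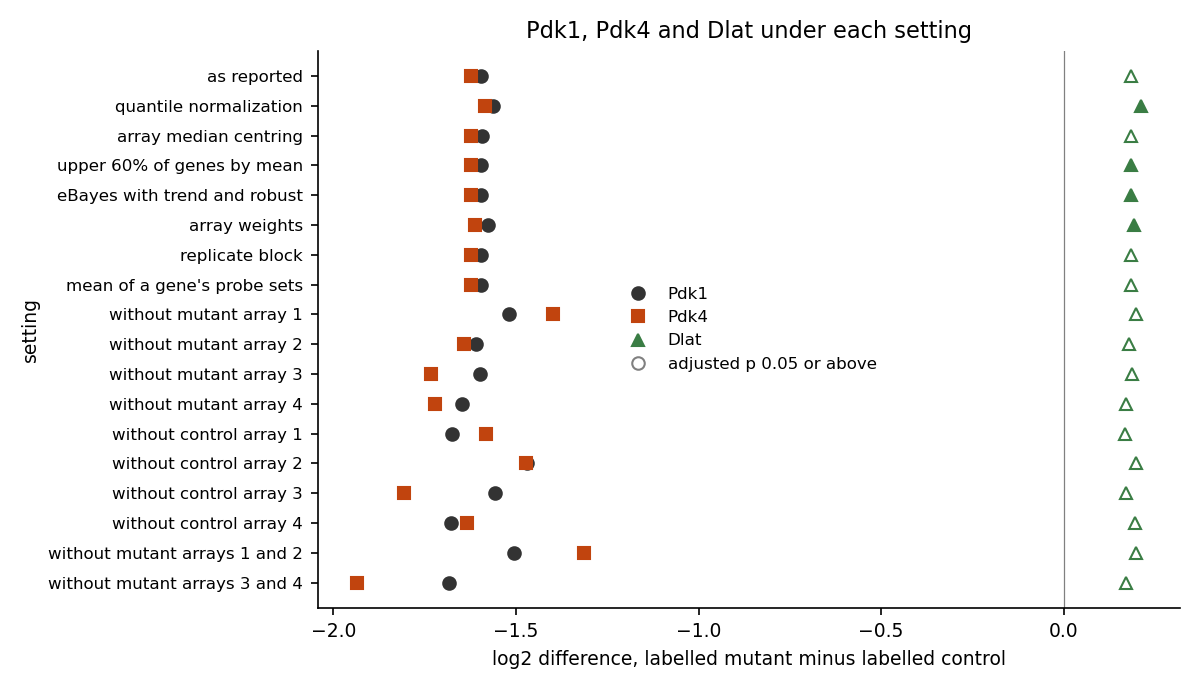
Log2 differences, arrays labelled mutant minus arrays labelled control, of Pdk1 (circles), Pdk4 (squares) and Dlat (triangles) under each setting on the vertical axis; open symbols mark a limma adjusted p of 0.05 or above. Pdk1 and Pdk4 are filled in every setting drawn, and Dlat is filled in 4 of them.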

How the data were processed

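Total RNA of whole kidneys was labelled with biotin for Affymetrix arrays, per the labels' protocols. The deposited table holds 35556 probe sets by 8 arrays on a log2 scale, as its range shows. The submitters' processing notes name limma, with no version; how background, summarization and normalization were handled, and the build, is not given in the sources used here. Such values carry no detection call, and the number of arrays limits the precision.

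Genes were named from the platform annotation, updated through Entrez identifiers and accessions to GRCm38.p6 gene names: 21789 probe sets named 1 gene (21701 matched a current gene), 1621 named several and 12146 were not listed. The probe set with the highest mean was kept per gene. The groups were compared by limma (version 3.58.1, R 4.3.3; lmFit, eBayes, two-sided), adjusted by Benjamini-Hochberg over 19936 genes, after the fit was tested on simulated data. Nothing was renormalized. A fold is 2 to the size of the log2 difference. Intervals of pair shifts assume equal variances.

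Named were all members, the called pathway genes and the 3 with the largest difference, the 5 genes closest to Pdk1 and to Pdk4, called markers and Vhl; other genes were named for their role or a single value after their values were seen. Members and lists were chosen with earlier results of these data known. Arrays are numbered 1 to 4 within each group in their titles, with no reason stated. Deviations from group means correlated at 0.138, 0.153, 0.295 and 0.175 between same-numbered arrays. Between mutant and control arrays of different numbers the highest correlation was 0.111. On these values only, the numbers may pair the arrays. The main limma fit and the exact pair tests did not use this pairing, and only the replicate block took it in. Alternatives were other normalizations, a filter on dim genes, other variance models, the replicate block, a stricter threshold and leaving out arrays.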

Additional observations from a re-analysis of the deposited data

Results flagged for a closer look

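Of 222 groups of 4 arrays checked over the members, the pathway and marker lists, the genes closest to Pdk1 and Pdk4, Vhl and Egln3, 3 held an array far from its group. Sirt4, a mitochondrial deacylase gene that acts on pyruvate dehydrogenase, read 8.93 on mutant array 1 and 8.81 to 8.82 on the other arrays labelled mutant, a gap of 0.873 of the group's range. Acta2, a smooth muscle marker, read 11.112 on control array 4 and 11.234 to 11.257 on the other arrays labelled control (0.841 of the range). Atp6v1g3, a proton pump subunit gene of the collecting duct, read 10.137 on mutant array 4 and 9.999 to 10.018 on the other arrays labelled mutant (0.863 of the range). Chance flags about 1 in 20 such groups. No member of the complex, kinase or phosphatase set was flagged, Pdk4 on mutant array 1 included.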

How the results depend on the processing

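Pdk1 and Pdk4 were called lower in all 17 alternatives run at the same threshold, with log2 differences from -1.68 to -1.47 and from -1.94 to -1.31. Among the 17, averaging the probe sets of each gene left the members' own values unchanged. Dlat passed after quantile normalization (0.21), with the upper 60% of genes by mean (0.18), with a trended and robust variance (0.18) and with array weights (0.19), and in none of the other 13. The 7 other members were not called in any of the 17. The count of members called was 2 or 3, and that of the pathway list 5 to 10 against 7. The count of all genes called was 1442, fell to 602 at an adjusted p under 0.01 and ran from 902 to 1368 without 1 array (902 without control array 3, 903 without control array 2 and 917 without mutant array 2); the higher and lower calls were 697 and 878 after quantile normalization against 517 and 925. Among the 111 genes of the members, lists and neighbours, with Vhl and Egln3, the replicate block ended the calls of Vhl and Me3, made calls of the markers Cd68, Slc12a1 and Slc12a3, and changed no other; it gave 1657 genes, 2 members and 6 pathway genes. Exact tests of pairs with 1 array left out cannot go below 0.0571 and with 4 numbered pairs below 0.125, so for these only the shifts were recomputed, and no sign turned in the 4 pairs with non-overlapping groups. In the full set 4 pairs had an exact p under 0.05 (0.05 when adjusted over the 7 pairs, not under the threshold). After quantile normalization 4 pairs again had an unadjusted exact p under 0.05. Averaging the probe sets of each gene cannot change these pairs, since each member has exactly 1 probe set. The cause was not tested. The median standard error over all genes was 0.0718, which 4 arrays a group allow.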
